A study of Mus musculus with 12 samples.

Results

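The reactive astrocyte genes followed here are 10 genes that astrocytes are known to switch on or raise when they respond to damage, inflammation or amyloid. They are *Gfap* and *Vim*, which encode intermediate filaments, the receptors *Osmr*, *S1pr3* and *Cd44*, the secreted inhibitors *Serpina3n* and *Timp1*, and *Steap4*, *Cd109* and *Ggta1*, which encode membrane proteins and a Golgi enzyme. A gene was read from the transcript cluster, the array's probe set for 1 transcript, that carried its symbol alone, and from the brightest such cluster over all mice where there were several. On this rule 9 of the 10 genes were measured, among 22180 genes with a symbol of their own on the array. *Ggta1*, whose enzyme adds galactose to glycans, was not analysed here.

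Astrocytes take up glutamate, feed neurons and cover blood vessels with their endfeet. In a reactive state they enlarge, build more GFAP and vimentin filament and secrete protease inhibitors and complement, and around amyloid plaques they form a ring together with microglia. One known route to this state runs from cytokines of the interleukin-6 family, such as oncostatin M, through a receptor pair and JAK kinases to the transcription factor STAT3, which acts on the *Gfap* promoter.

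The mice were males of 18 months in 4 groups of 3, wild-type or homozygous App NL-F/NL-F, each on a regular diet (RD, the control diet) or a high-fat diet (HFD) for 12 months from the age of 6 months. App NL-F/NL-F mice carry the Swedish and Beyreuther/Iberian mutations and a humanized Aβ sequence in the mouse's own *App* gene, so that App is not overexpressed. Both genotypes descended from heterozygous matings on C57BL/6J and were then kept as inbred lines, so that genotype and line cannot be told apart. Total RNA of the hippocampus of each perfused mouse was hybridized to 1 array, and the groups are called WT RD, App RD, WT HFD and App HFD. The tissue holds all hippocampal cells, so that more astrocytes, more reactive astrocytes and more RNA per astrocyte cannot be told apart.

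All values are log2 signals, on which a difference of 1 is a doubling, and they are given per mouse in the order mouse 1, 2 and 3. The median of an array lay between 4.78 and 4.84, and arrays correlated with each other at r of 0.982 to 0.988. The number of arrays, 3 a group, limits the precision. Of the 41345 clusters, 9858 had a mean above a signal of 100, and 4 of the 9 measured members were among them (*Serpina3n*, *Gfap*, *Vim* and *Osmr*). *App* itself had group means of 11.65 in WT RD, 11.66 in WT HFD and 11.60 in both App groups, which does not check the genotype since the mutated gene keeps its own promoter. All 12 markers of resting astrocytes were measured, with a mean level between 8.71 and 8.86 in every mouse.

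The stretches of DNA around the start sites of 8 of the 9 measured members were read from RefSeq (build GRCm38.p6), each from 250 bases before to 50 bases after the start. They were searched on both strands for the STAT motif TTCNNNGAA and the AP-1 motif TGANTCA. *Gfap* and *Steap4* held 1 STAT motif each, as did 8.3% of 32851 windows of this length, and *Osmr* held 1 AP-1 motif, as did 7.81%. The other 5 members, *Vim*, *S1pr3*, *Cd44*, *Serpina3n* and *Timp1*, held neither, and no window held both motifs. A match describes the letters and does not show a bound site. The windows with a motif are printed 5′ to 3′ on the gene's strand with the motif in capitals, followed by that of *Serpina3n*, the brightest member, for comparison.
Gfap: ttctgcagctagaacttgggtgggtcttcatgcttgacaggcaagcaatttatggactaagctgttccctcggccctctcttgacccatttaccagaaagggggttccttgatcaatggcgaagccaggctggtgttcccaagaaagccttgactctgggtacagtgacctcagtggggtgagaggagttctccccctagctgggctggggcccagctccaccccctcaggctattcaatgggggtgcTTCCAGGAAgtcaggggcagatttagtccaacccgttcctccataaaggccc
Steap4: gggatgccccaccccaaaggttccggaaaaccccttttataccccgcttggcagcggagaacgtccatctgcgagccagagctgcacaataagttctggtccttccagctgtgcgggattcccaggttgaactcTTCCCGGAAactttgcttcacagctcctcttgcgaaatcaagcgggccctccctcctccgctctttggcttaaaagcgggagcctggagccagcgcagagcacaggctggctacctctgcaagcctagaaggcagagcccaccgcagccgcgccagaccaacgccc
Osmr: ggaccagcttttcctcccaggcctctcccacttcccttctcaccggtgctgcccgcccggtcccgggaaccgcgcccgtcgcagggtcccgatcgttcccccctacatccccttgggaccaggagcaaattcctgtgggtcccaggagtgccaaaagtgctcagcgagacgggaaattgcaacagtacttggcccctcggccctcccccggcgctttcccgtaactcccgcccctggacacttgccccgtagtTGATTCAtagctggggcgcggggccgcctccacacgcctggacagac
Serpina3n: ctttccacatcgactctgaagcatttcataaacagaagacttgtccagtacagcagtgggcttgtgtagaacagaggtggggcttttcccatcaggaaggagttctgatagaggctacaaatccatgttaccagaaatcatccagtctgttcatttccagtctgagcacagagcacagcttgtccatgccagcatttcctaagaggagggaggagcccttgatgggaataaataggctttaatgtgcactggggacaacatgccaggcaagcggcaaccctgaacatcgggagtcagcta
They lie at chr11:102897151-102897450 on the minus strand (*Gfap*), chr5:7960222-7960521 on the plus strand (*Steap4*), chr15:6874264-6874563 on the minus strand (*Osmr*) and chr12:104406458-104406757 on the plus strand (*Serpina3n*). The STAT motif began at position -2 from the start in *Gfap* and at -116 in *Steap4*, and the AP-1 motif at position 4 in *Osmr*.

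*Gfap*, the filament protein by which astrocytes are usually stained, had the clearest order of groups. Its log2 signals were 9.24, 9.18 and 9.25 in WT RD, 9.39, 9.30 and 9.15 in WT HFD, 9.39, 9.45 and 9.52 in App RD and 9.59, 9.74 and 9.51 in App HFD. The App mice lay above the wild-type mice on the same diet without overlap, and over both diets WT HFD mouse 1 alone reached the lowest App mouse, App RD mouse 1 (both 9.39). The difference between genotypes over both diets was 0.28 (standard error 0.06, a fold of 1.21), with an unadjusted p of 0.00118 and an adjusted p of 0.493 in limma. It was 0.23 (standard error 0.09) on the RD and 0.33 (standard error 0.09) on the HFD. Between diets, App HFD lay 0.16 above App RD (95% interval -0.04 to 0.36; 0.097 without App HFD mouse 2) and WT HFD 0.06 above WT RD (95% interval -0.14 to 0.25). Set against WT RD, App HFD was higher by 0.38, a fold of 1.31, the smallest unadjusted p of any member in that comparison (0.00135, adjusted p = 0.664).

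*Vim*, whose filament protein vimentin is also made by endothelial cells, fibroblasts and microglia, was lowest in WT RD. The signals were 8.50, 8.59 and 8.44 in WT RD, 8.67, 8.67 and 8.75 in WT HFD, 8.74, 8.79 and 8.74 in App RD, and 8.88, 8.67 and 8.92 in App HFD. Every mouse of the other 3 groups lay above every WT RD mouse, whereas those 3 groups lay close together. App RD was higher than WT RD by 0.25 (standard error 0.08, unadjusted p = 0.0143, adjusted p = 0.71) and WT HFD by 0.19 (unadjusted p = 0.0502, adjusted p = 0.949), and the difference between App HFD and WT HFD was 0.13 (95% interval -0.06 to 0.31), or 0.21 without App HFD mouse 2. The other cluster of *Vim* was dimmer, with a mean of 6.64. It put App HFD 0.18 above WT RD (unadjusted p = 0.0485) against 0.31 for the brighter cluster, and App RD only 0.06 above WT RD.

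*Osmr*, the oncostatin M receptor subunit that pairs with gp130, was highest in App HFD. Signals were 6.49, 6.87 and 6.46 in WT RD, 6.78, 6.71 and 6.83 in WT HFD, 6.54, 6.66 and 6.60 in App RD and 6.80, 6.96 and 6.93 in App HFD. Within App mice the HFD group lay above the RD group without overlap, by 0.30 (standard error 0.11, a fold of 1.23, unadjusted p = 0.0215, adjusted p = 0.999). WT RD mouse 2, at 6.87, stood above every WT HFD mouse, and the difference between the wild-type groups was 0.16 (95% interval -0.08 to 0.41). Over both genotypes the HFD mice were higher by 0.23 (standard error 0.08, unadjusted p = 0.0135, adjusted p = 0.978), and with 1 mouse left out it ran from 0.19 without WT RD mouse 3 (unadjusted p = 0.0352) to 0.30 without WT RD mouse 2 (unadjusted p = 5.43e-04). The difference between the wild-type groups was 0.092 and 0.30 without these mice. The difference between genotypes was 0.06 (95% interval -0.12 to 0.23).

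*S1pr3*, a receptor for sphingosine 1-phosphate, and *Cd44*, the hyaluronan receptor, were dimmer. *S1pr3* had 5.56, 5.70 and 5.51 in WT RD, 5.83, 5.65 and 5.57 in WT HFD, 5.35, 5.43 and 5.50 in App RD, and 5.38, 5.47 and 5.78 in App HFD. Every App RD mouse lay below every WT RD mouse, and the difference between genotypes over both diets was -0.15 (95% interval -0.33 to 0.03). *Cd44* had 4.55, 4.77 and 4.28 in WT RD, 4.49, 4.49 and 4.41 in WT HFD, 4.87, 4.68 and 4.69 in App RD, and 4.81, 4.56 and 4.94 in App HFD. The App mice were higher by 0.26 over both diets (standard error 0.09, a fold of 1.19, unadjusted p = 0.0213, adjusted p = 0.734). On the HFD the genotypes did not overlap, whereas on the RD the wild-type mouse 2 lay above App RD mice 2 and 3. Its diet difference was -0.02 (95% interval -0.23 to 0.19).

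*Serpina3n*, a secreted serine protease inhibitor and a leading marker of reactive astrocytes, was the brightest member. The signals were 9.50, 9.52 and 9.58 in WT RD, 9.71, 9.52 and 9.64 in WT HFD, 9.41, 9.59 and 9.68 in App RD, and 9.86, 10.14 and 9.66 in App HFD. App HFD mouse 2 was the highest of the 12 mice, and App HFD mouse 3 lay within the range of App RD and WT HFD. App HFD exceeded App RD by 0.33 (standard error 0.12, a fold of 1.25, unadjusted p = 0.0229, adjusted p = 0.999) and WT HFD by 0.26 (unadjusted p = 0.0557, adjusted p = 0.925). On the RD the genotypes differed by 0.02 (95% interval -0.25 to 0.29). Without App HFD mouse 2, the difference from App RD was 0.20 (unadjusted p = 0.102) and that from WT HFD 0.13 (unadjusted p = 0.246). The interaction, which asks whether the diet difference is larger in App mice, was 0.24 (95% interval -0.14 to 0.62), and 0.11 without App HFD mouse 2. Without App HFD mouse 3 it was 0.35 (unadjusted p = 0.04998 in limma), and the difference from App RD was 0.44.

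*Timp1*, an inhibitor of matrix metalloproteinases, was the dimmest member, at percentile 18.5 of all clusters. Its signals were 2.78, 2.94 and 2.92 in WT RD, 3.14, 2.93 and 3.41 in WT HFD, 2.95, 3.17 and 2.91 in App RD, and 3.28, 3.18 and 3.39 in App HFD. The HFD groups were higher by 0.27 over both genotypes (standard error 0.09, unadjusted p = 0.0107, adjusted p = 0.955). The difference was 0.28 in wild-type and 0.27 in App mice, with an interaction of -0.01 (95% interval -0.40 to 0.38). In wild-type mice it was 0.16 without WT HFD mouse 3 and 0.39 without WT HFD mouse 2. The diets overlapped in wild-type mice and did not in App mice.

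*Steap4*, a metalloreductase of the cell membrane, gave 3.59, 3.58 and 3.48 in WT RD, 3.66, 3.70 and 3.71 in WT HFD, 3.67, 3.79 and 3.78 in App RD, and 3.82, 3.60 and 3.74 in App HFD. As for *Vim*, each mouse of the other 3 groups lay above the WT RD mice, and those groups overlapped. App RD exceeded WT RD by 0.20 (standard error 0.08, unadjusted p = 0.0299, adjusted p = 0.774). *Cd109*, a membrane-anchored protein that binds TGF-β, was lowest in App RD, with 5.76, 5.76 and 5.79 in WT RD, 5.93, 5.72 and 5.50 in WT HFD, 5.12, 5.55 and 5.75 in App RD, and 5.84, 5.73 and 5.44 in App HFD. Its WT RD mice lay within 0.03 of each other while the App RD mice spanned 0.63, and the difference between those groups was -0.30 (95% interval -0.67 to 0.08). Without App RD mouse 1, the lowest of the 12, it was -0.12.

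**Figure D1:**
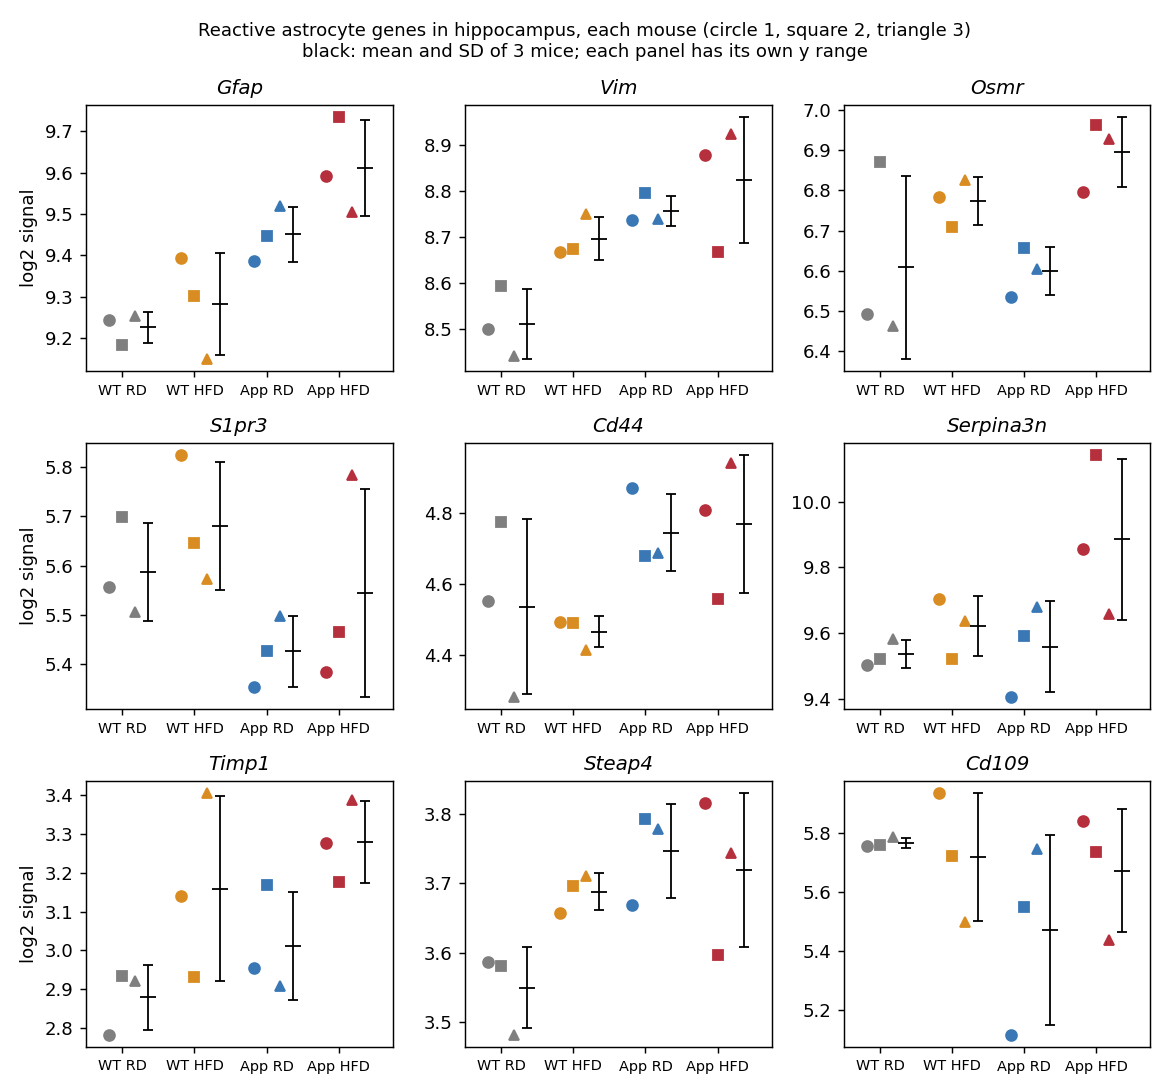
The log2 signal of each of the 9 measured genes in every mouse of the 4 groups, with the mean and SD of 3 mice in black. *Gfap* steps up from wild-type to App groups, *Osmr* and *Serpina3n* are highest in App HFD, *Vim* and *Steap4* are lowest in WT RD, and *S1pr3* and *Cd109* have their lowest means in App RD.

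App RD against WT RD asks what the knock-in alone did. None of the 9 members passed an adjusted p under 0.05 in limma (0 of 41345 clusters did, 0%). At an unadjusted p under 0.05, 3 members were higher (*Gfap*, *Vim* and *Steap4*), where 3.06% of all clusters were, and the same 3 genes did not overlap between the groups, where 5.18% of all clusters lay higher without overlap. *S1pr3* and *Cd109*, 2 members, lay lower without overlap, where 5.75% of all clusters did, and no member was lower at an unadjusted p under 0.05. The 3 higher members became 1 without WT RD mouse 3, App RD mouse 2 or App RD mouse 3. Without WT RD mouse 2 the count stayed at 3, but *Cd44* (unadjusted p = 0.0327 in limma) took the place of *Gfap* (0.0786). The median difference of the 9 members was 0.13, beside a median over all clusters of -0.003.

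App HFD against WT HFD sets the genotypes side by side on the HFD. Again 0 members passed the adjusted test (background 0%). *Gfap* (0.33, unadjusted p = 0.00377) and *Cd44* (0.30, unadjusted p = 0.0455) were the 2 members higher at an unadjusted p under 0.05, against 2.43% of clusters, and the same 2 members did not overlap, against 5.52%. The median member difference was 0.12, beside -0.005 over all clusters, and 7 of 9 were above 0, against 48.6% of clusters. The 2 members became 1 at the unadjusted level without any 1 WT HFD mouse or App HFD mouse 1. They also became 1 without WT RD mouse 1 or App RD mouse 2 or 3, which are outside this comparison. Leaving out these outside mice kept both differences as they were. Without WT RD mouse 1, *Cd44* still differed by 0.30, with an unadjusted p of 0.0574 in limma. The count stayed at 2 without App HFD mouse 3, where *Cd44* had its lowest difference (0.22) and *Serpina3n* its highest (0.38). Over the mice left out, the unadjusted p in limma reached 0.164 for *Cd44* and fell to 0.0101 for *Serpina3n*. That of *Gfap* was at most 0.0188.

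WT HFD against WT RD asks what the diet did without the mutations. Here 0 members passed the adjusted test (background 0%), and *Timp1* alone was higher at an unadjusted p under 0.05 (0.28, unadjusted p = 0.048, adjusted p = 0.949), against 2.95% of clusters. *Vim* and *Steap4* lay higher without overlap, 2 members, against 5.3% of clusters. The members' median difference was 0.09. With 1 mouse left out, *Timp1* stayed past the unadjusted level without WT HFD mouse 2 or App RD mouse 2 and was lost without any of the other 10 mice. Without WT RD mouse 2 the members at that level were *Vim* and *Osmr* (unadjusted p of 0.0384 and 0.00693), and without App HFD mouse 2 or 3 *Vim* alone.

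App HFD against App RD asks what the diet added in App mice. There were 0 members past the adjusted test (background 0%), and 2, *Osmr* and *Serpina3n*, higher at an unadjusted p under 0.05, against 2.34% of clusters. *Osmr* and *Timp1* lay higher without overlap, 2 members, against 4.98%. At the unadjusted level 0 members were left without App RD mouse 1, and 1 without App HFD mouse 2 or 3. *Gfap* did not reach that level here. The median member difference was 0.16, beside -0.002 over all clusters, and 8 of 9 were above 0, against 49.6% of clusters.

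App HFD against WT RD combines both changes and shares its groups with the comparisons above, so that its counts are not independent of theirs. It gave 0 members past the adjusted test (background 0%), the smallest adjusted p being 0.664 for *Gfap*. At an unadjusted p under 0.05, 5 of 9 members were higher (*Gfap*, *Vim*, *Osmr*, *Serpina3n* and *Timp1*), against 2.53% of all clusters. Without overlap, 5 members were higher (*Gfap*, *Vim*, *Serpina3n*, *Timp1* and *Steap4*), against 5.15%. Among the bright members *Gfap*, *Vim*, *Osmr* and *Serpina3n*, the differences ran from 0.29 to 0.38, and they were 0.17 for *Steap4* and 0.40 for *Timp1*, whose signals lay near the low end of the arrays. The median over the 9 members was 0.29. *Osmr* was no longer past the unadjusted level without WT RD mouse 1 or 3, or App HFD mouse 2 or 3, and *Serpina3n* without App HFD mouse 2, where *Cd44* and *Steap4* passed it.

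**Figure D2:**
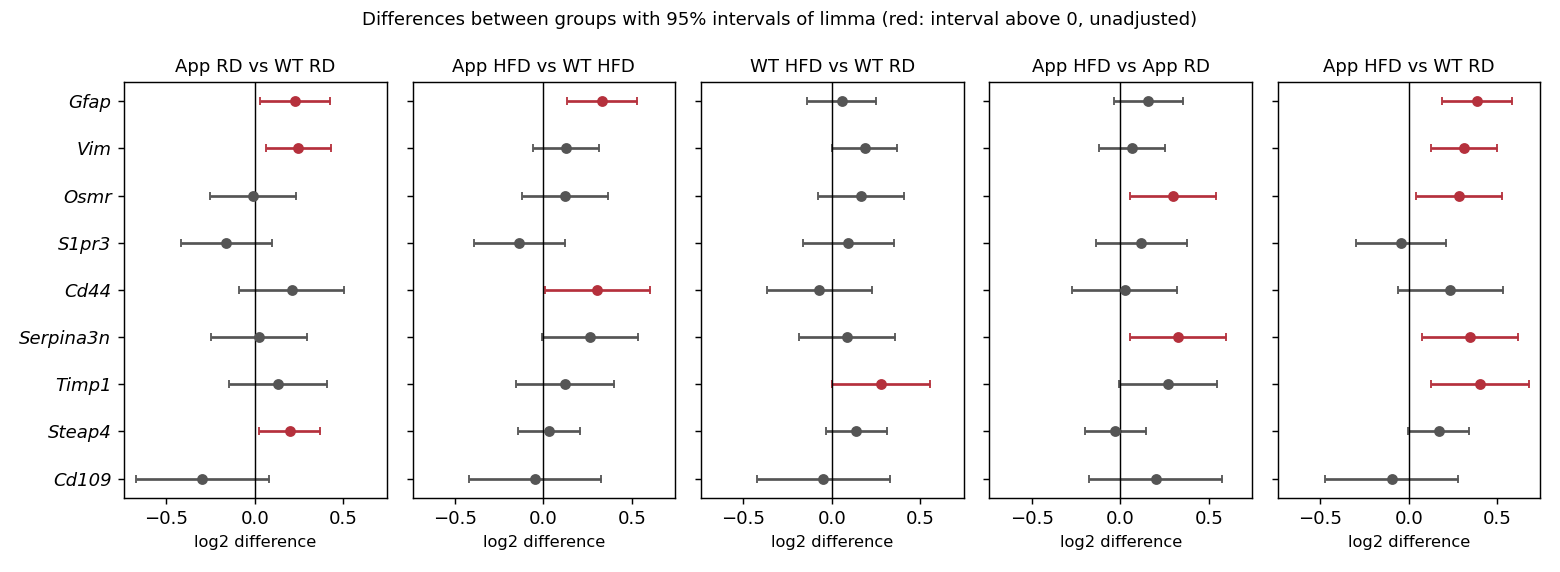
Log2 differences (x axis) of the 9 genes (rows) in 5 comparisons between groups, as limma estimates with 95% intervals, in red where the unadjusted interval lies above 0. App HFD against WT RD has 5 red genes and WT HFD against WT RD has 1.

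Over both diets, 3 members were higher in App mice at an unadjusted p under 0.05 (*Gfap*, *Vim* and *Cd44*), against 2.92% of clusters, and 0 of 9 had all 6 App mice above all 6 wild-type mice, against 0.244%. The count at the unadjusted level was 3 or 4 with any mouse left out, and 2 with clusters above a signal of 100 alone. *Gfap* and *Vim* kept that level with any mouse left out (highest unadjusted p in limma 0.00362 and 0.0270). That of *Cd44* reached 0.0541, where another member took its place in the count. No member passed the adjusted test, where 1 of 41345 clusters did (0.00242%). That was *Cst7*, the cystatin F gene of microglia around plaques (difference 1.17, adjusted p = 0.00608). Over both genotypes, 3 members were higher on the HFD at an unadjusted p under 0.05 (*Osmr*, *Serpina3n* and *Timp1*), against 2.66% of clusters, 0 had no overlap between diets, against 0.169%, and 0 passed the adjusted test (background 0%). *Osmr* and *Timp1* kept the diet difference at that level with any mouse left out, whereas *Serpina3n* lost it without WT RD mouse 1 or 2, WT HFD mouse 1 or 3, App RD mouse 1 or 2, or App HFD mouse 1 or 2, and *Vim* or *Gfap* took its place in some of these. The count was 2 with the replicate block. *Gfap* differed by 0.28 between genotypes and 0.11 between diets, and *Osmr* by 0.06 and 0.23; whether these sizes differ within a gene was not tested. For the interaction, 0 members passed the adjusted test (background 0%) and 0 had an unadjusted p under 0.05, against 4.97% of clusters in either direction, the smallest being that of *Steap4* (-0.17, unadjusted p = 0.164). None of the members was thereby shown to respond to the diet differently in App and wild-type mice, and the intervals of the interaction were wide, -0.17 to 0.38 for *Gfap* for example.

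By group means, App HFD was the highest group for 6 of the 9 members and the lowest for 0, and WT RD was the lowest for 5. Neighbouring groups in these orders mostly differed by less than the spread of the mice. For *Gfap* the order ran from WT RD through WT HFD and App RD to App HFD, with WT RD and WT HFD overlapping, WT HFD and App RD overlapping at 9.39, and App RD and App HFD overlapping at 9.51 to 9.52. Of the 3 App HFD mice, 7, 6 and 8 members lay above the highest WT RD mouse, of the WT HFD mice 7, 3 and 4, and of the App RD mice 5, 5 and 4. The same counts over all clusters were not computed, neither for the group orders nor for single mice, so that these are descriptions only.

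The order of the mice differed between members. App HFD mouse 2 had the highest *Gfap*, *Osmr* and *Serpina3n* of its group and the lowest *Vim*, *Cd44*, *Timp1* and *Steap4*. The root mean square distance between profiles standardised over the 12 mice, 0 for equal profiles, was smallest for *Vim* and *Steap4* (0.46), followed by *Gfap* and *Serpina3n* (0.66) and *Vim* and *Timp1* (0.70), and largest for *Cd44* and *Cd109* (1.64). The bright astrocyte genes *Gfap* and *Serpina3n* were farther from *Vim*, at 0.95 and 1.19. These distances are descriptions over 12 shared arrays.

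**Figure D3:**
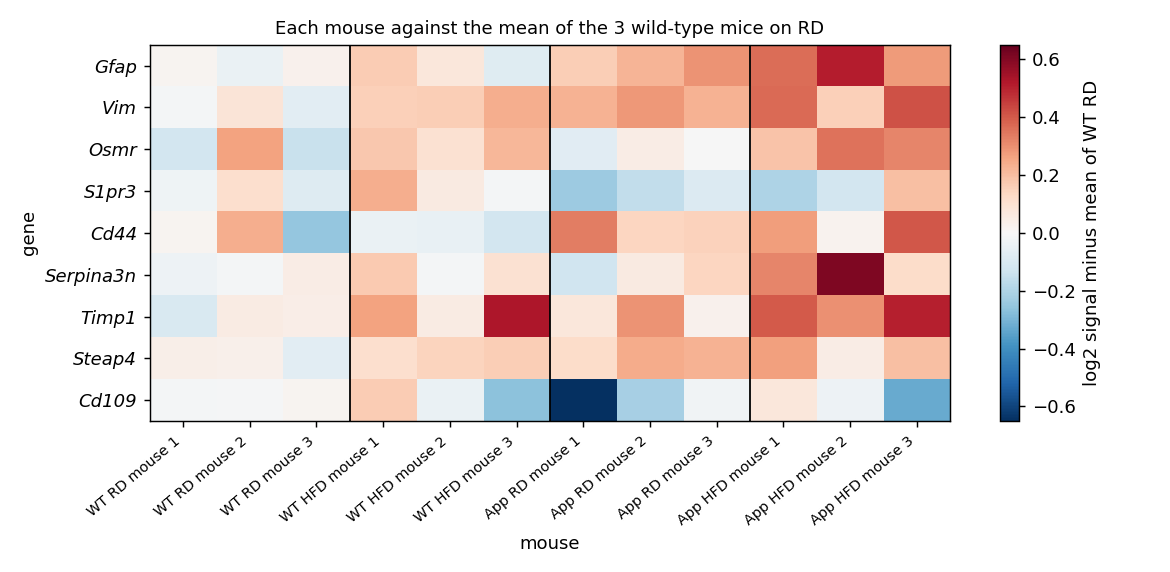
Each mouse (columns) against the mean of the 3 WT RD mice for each of the 9 genes (rows), in log2 units by colour. App HFD mouse 2 is the darkest of its group for *Gfap*, *Osmr* and *Serpina3n* and the palest for *Vim*, *Cd44*, *Timp1* and *Steap4*.

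Among 6824 other genes with a mean signal over 100, *C4b*, the complement component C4 gene, was the closest to *Gfap* over the 12 mice (distance 0.38) and the next closest to *Serpina3n* (0.46). Its signals were 7.20, 7.28 and 7.31 in WT RD, 7.55, 7.46 and 7.18 in WT HFD, 7.36, 7.44 and 7.62 in App RD, and 7.67, 8.20 and 7.57 in App HFD, again highest in App HFD mouse 2. The next for *Gfap* were *Acp1*, *Anln*, *Daam2* and *B2m*, the light chain of MHC class I, at 0.39 to 0.43. For *Serpina3n* they were *Mast4* (0.41), *Mrpl3*, *Lrrn1* and *Tm7sf3* (0.47 to 0.48).

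Genes of the same programme outside the 10 were counted in the same way, and 0 of any of these lists passed the adjusted test in any comparison. Of 5 pan-reactive genes, known to be raised in most forms of astrocyte reaction, *Lcn2* and *Cp* were higher in App HFD than in WT RD at an unadjusted p under 0.05. At that level 2.53% of all clusters were higher. *Lcn2*, which encodes the iron-siderophore carrier lipocalin 2, had 5.06, 6.14 and 4.58 in WT RD, 5.39, 5.70 and 6.90 in WT HFD, 5.58, 4.76 and 4.83 in App RD, and 6.58, 6.74 and 6.40 in App HFD. All App HFD mice lay above all App RD mice, by 1.52 (standard error 0.45, a fold of 2.87, unadjusted p = 0.00633, adjusted p = 0.999). In wild-type mice the HFD group was higher by 0.74, and the diets overlapped. The interaction of *Lcn2* was 0.78 and did not reach an unadjusted p under 0.05, so that a larger diet difference in App mice was not shown. *Cp*, the ferroxidase ceruloplasmin, was higher by 0.50 in App HFD than in WT RD (unadjusted p = 0.00416, adjusted p = 0.707). At the unadjusted level *Cp* was also higher than WT RD in App RD and in WT HFD, against 3.06% and 2.95% of clusters. Its signals were 6.50, 6.88 and 6.47 in WT RD and 6.98, 7.05 and 7.15 in WT HFD. They were 6.97, 7.11 and 6.81 in App RD and 7.15, 6.91 and 7.30 in App HFD. The differences of *Cxcl10* (0.24) and *Hspb1* (0.19) in App HFD against WT RD had unadjusted p of 0.253 and 0.376.

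In App HFD against WT RD, 2.53% of all clusters were higher at an unadjusted p under 0.05. The list of genes raised in astrocytes by lipopolysaccharide had 8 measured genes, with 1 higher and 0 lower at that level in this comparison. That was *Serping1*, the inhibitor of complement C1 (0.66, standard error 0.22, unadjusted p = 0.0137, adjusted p = 0.826). *Serping1* was also higher in WT HFD than in WT RD at that level, by 0.62, where 2.95% of clusters were higher. Its signals were 5.78, 6.30 and 5.63 in WT RD and 6.43, 6.61 and 6.53 in WT HFD. They were 6.24, 6.54 and 6.07 in App RD and 6.71, 6.10 and 6.90 in App HFD. *Iigp1*, an interferon-induced GTPase, differed by 0.53 (unadjusted p = 0.0647), and *Srgn* and *Fbln5* by 0.24 and 0.22. *Amigo2* was lower in App RD than in WT RD by an estimate of -0.35 (unadjusted p = 0.00688, adjusted p = 0.686), where 6.18% of clusters were at an unadjusted p under 0.05 in either direction. Its signals were 7.18, 7.25 and 7.26 in WT RD and 7.21, 7.15 and 7.26 in WT HFD. They were 6.68, 6.87 and 7.11 in App RD and 7.11, 7.16 and 7.06 in App HFD. At that level *Amigo2* was also higher in App HFD than in App RD, and lower in App mice over both diets (-0.22). The list of genes raised after ischemia had 11 measured genes and 0 at an unadjusted p under 0.05 in App HFD against WT RD. Over all clusters 5.19% were at that level in either direction. The median of this list was 0.03. Its named genes were *Emp1* (0.30), *Ptx3* (-0.18), *Ptgs2* (0.17) and *Slc10a6* (-0.14).

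Upstream of *Gfap*, 12 genes of the oncostatin M and STAT3 pathway were measured. In App HFD against WT RD, 0 of them had an unadjusted p under 0.05 (median -0.02), against 5.19% of clusters in either direction. The ligand gene *Osm* differed by 0.16, *Il6* by 0.29 at a mean signal of 1.95, and the feedback inhibitor *Socs3* by -0.21. *Il6ra*, the interleukin-6 receptor, was the pathway's single gene at that level in the diet comparisons. It had 5.96, 6.21 and 6.01 in App RD and 6.44, 6.52 and 6.35 in App HFD, a difference of 0.38 (standard error 0.11, unadjusted p = 0.00518, adjusted p = 0.999), like *Osmr* without overlap in App mice.

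The filament genes *Nes* and *Synm*, which encode partners of vimentin and GFAP, differed by -0.12 (95% interval -0.64 to 0.40) and -0.03 (95% interval -0.26 to 0.20) in App HFD against WT RD. Of 10 measured ligands, partners and substrates of the members, *Tgfbr2*, the TGF-β receptor, was higher at an unadjusted p under 0.05 (0.26, unadjusted p = 0.0306, adjusted p = 0.918), against 2.53% of clusters. *Mmp9* (0.24), *S1pr2* (0.13) and *S1pr1* (-0.09) had unadjusted p of 0.229 to 0.332.

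Markers of other cell types lay higher in some of the same groups. In App against wild-type mice over both diets, 2.92% of all clusters were higher at an unadjusted p under 0.05. At that level 8 of 11 microglia markers and 4 of 7 markers of plaque-associated microglia were higher. The mean level of the microglia list ran from 7.16 to 7.32 in wild-type and from 7.37 to 7.64 in App mice. The same mean for plaque-associated microglia was 6.14 to 6.25 and 6.39 to 6.62. The list of resting astrocyte markers lay at 8.71 to 8.82 in wild-type and 8.81 to 8.86 in App mice. Between genotypes, 10 of its 12 genes were above 0, against 48.4% of all clusters. Of these 1, the glutamine synthetase gene *Glul*, was higher at an unadjusted p under 0.05 (0.12). The part of these cell types in the genotype differences of *Gfap*, *Vim* and *Cd44* was not tested.

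In WT HFD against WT RD, all 9 endothelial, all 8 mural and all 7 meningeal fibroblast markers were above 0, against 49.6% of all clusters. Their medians were 0.24, 0.23 and 0.22, beside 0.19 for *Vim*, 0.14 for *Steap4* and 0.28 for *Timp1*. All 5 measured oligodendrocyte markers were above 0 there too, and 0 of 7 neuron markers. The endothelial, mural and meningeal markers were also all above 0 in App RD against WT RD (medians 0.17, 0.12 and 0.14), against 49.3% of clusters. They were likewise all above 0 in App HFD against WT RD. In App HFD against WT HFD, 3 of 9, 3 of 8 and 2 of 7 were, against 48.6% of clusters. The endothelial mean was 6.29, 6.68 and 6.44 in WT RD and 6.51, 6.74 and 6.95 in WT HFD. WT RD mouse 2, the highest of its group for *Vim*, *Osmr*, *S1pr3*, *Cd44* and *Timp1*, was also its highest for endothelial (6.68), mural (6.51) and meningeal (6.25) markers. This mouse was likewise the highest of its group for resting astrocyte (8.82), microglia (7.28), ependymal (5.58) and choroid plexus (7.93) markers. Its oligodendrocyte markers were the lowest of the group (8.30). App HFD mouse 2, low in *Vim*, *Cd44*, *Timp1* and *Steap4* for its group, was also the lowest of its group in endothelial (6.63), mural (6.51) and meningeal (5.88) markers and the highest in microglia markers (7.64). Its oligodendrocyte markers (8.58) were the lowest too, and its plaque-associated microglia (6.62), resting astrocyte (8.82) and neuron (10.57) markers narrowly the highest. The choroid plexus list varied most, from 5.96 to 7.91 in App HFD and from 5.84 to 8.42 in App RD. Its 6 genes were all below 0 in App HFD against WT RD, where 48.4% of all clusters were above 0. Oligodendrocyte markers were 8.58 to 8.69 in App HFD and 8.30 to 8.43 in WT RD. The part of these cells in the members' differences was not tested.

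**Figure D4:**
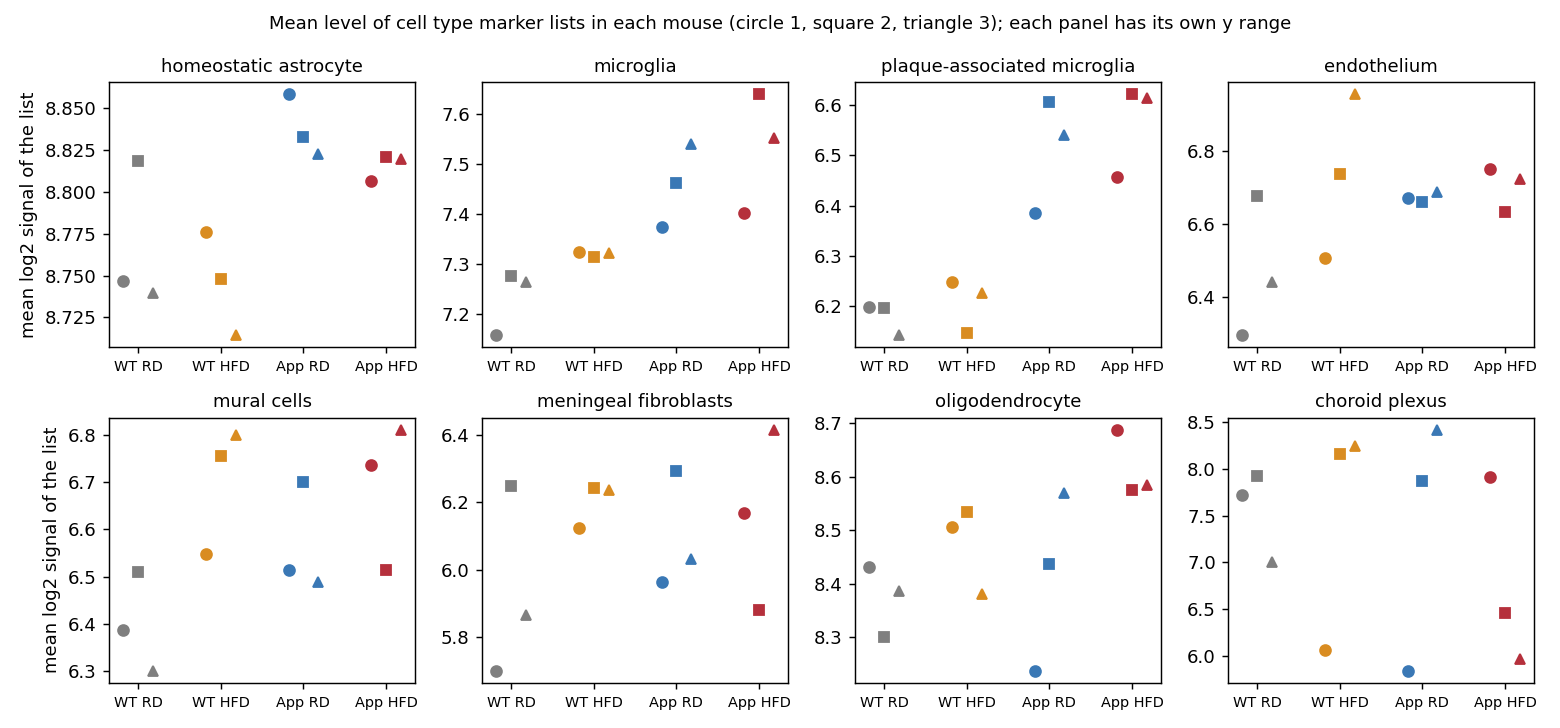
The mean log2 signal of 8 lists of cell type markers in every mouse of the 4 groups. Microglia lists lie higher in App groups (7.37 to 7.64 against 7.16 to 7.32), vascular and meningeal lists are low in WT RD mice 1 and 3, and the choroid plexus list scatters between mice of the same group.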

How the data were processed

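The deposited values are log2 signals, 1 per transcript cluster and mouse, which the authors made from Affymetrix Mouse Gene 2.0 ST scans in Transcriptome Analysis Console. How the arrays were summarised and normalized was not given in the sources used here, so that differences between arrays that this step left or removed are part of the values. They were used as deposited. Genes were named from the platform annotation: 23521 clusters carried 1 symbol, 1820 several and 16004 none, and only the first kind was used.

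A single linear model of group means was fitted by limma 3.58.1 (R 4.3.3) over 41345 clusters, leaving 8 residual degrees of freedom. Contrasts were tested with moderated spread (two-sided), and p-values were adjusted by Benjamini-Hochberg over all clusters, with an adjusted p under 0.05 as the call. The step was tested on simulated data. The simulated shifts were larger than any difference of the members and lay only in clusters above a signal of 100. That test thus does not show how differences as small or as dim as those of the members are called. The labels call the mice biological replicates. Replicate numbers were not taken as pairs across groups. From each list, up to 4 genes with the smallest unadjusted p in App HFD against WT RD were named, and the 5 genes closest to *Gfap* and *Serpina3n*. *Amigo2*, *Cst7* and *Glul* were named after their values were seen. Members and lists were chosen with earlier results of these data known. Counts at an unadjusted p under 0.05 were added after seeing the data. Alternatives were a filter at a signal of 100, an intensity trend with robust spread, a common median, quantile normalization, a replicate block, the compared groups alone, the mean over a gene's clusters, and leaving out each mouse.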

Additional observations from a re-analysis of the deposited data

How the results depend on the processing

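No member passed the adjusted test in any of the 8 comparisons under any alternative run, including each mouse left out. The filter, the trend, the block and the compared groups alone leave group means as they are. Of the 152 member differences under the settings that change the values (a common median, quantile normalization and the mean over clusters), 2 turned in sign, both the interaction of *Timp1*, which was -0.01 as deposited, 0.0198 with arrays shifted to a common median and 0.00508 after quantile normalization. Of 864 differences with 1 mouse left out, 30 turned in sign, and the cause was not tested.

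Their ranges with 1 mouse left out were as follows. The interaction ran from -0.13 to 0.11 for *Timp1*, from -0.0944 to 0.11 for *S1pr3* and from -0.0238 to 0.22 for *Cd44*. App RD minus WT RD ran from -0.0825 to 0.12 for *Osmr* and from -0.0366 to 0.0990 for *Serpina3n*. WT HFD minus WT RD ran from -0.20 to 0.0487 for *Cd44*, from -0.000748 to 0.12 for *Gfap* and from -0.16 to 0.0611 for *Cd109*. App HFD minus WT RD ran from -0.16 to 0.0379 for *S1pr3* and from -0.18 to 0.0205 for *Cd109*. The diet difference over both genotypes ran from -0.0862 to 0.0368 for *Cd44* and from -0.0129 to 0.145 for *Cd109*. App HFD minus WT HFD ran from -0.16 to 0.0694 for *Cd109* and from -0.0175 to 0.0917 for *Steap4*. App HFD minus App RD ran from -0.0610 to 0.13 for *Cd44*, from -0.0760 to 0.0332 for *Steap4* and from -0.000665 to 0.20 for *S1pr3*.

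Counts of members higher at an unadjusted p under 0.05, added after seeing the data, varied with the mouse left out. A count that stayed the same could hold other members, such as *Cd44* for *Gfap* in App RD against WT RD without WT RD mouse 2. In App HFD against App RD, 2 members became 0 without App RD mouse 1 and 1 without App HFD mouse 2 or 3. In App RD against WT RD, 3 became 1 without WT RD mouse 3 or App RD mouse 2 or 3. They became 2 with an intensity trend and robust spread, the compared groups alone or the mean over a gene's clusters. The filter, which leaves out the dim *Steap4*, also gave 2. In App HFD against WT HFD, 2 became 1 without any WT HFD mouse, WT RD mouse 1, App RD mouse 2 or 3, or App HFD mouse 1, and also with the replicate block. In WT HFD against WT RD, 1 became 2 (neither of them *Timp1*) without WT RD mouse 2 and 0 without WT RD mouse 1 or 3, WT HFD mouse 1 or 3, App RD mouse 1 or 3 or App HFD mouse 1, and 0 with a common median, the replicate block or the compared groups alone. In App HFD against WT RD, 5 became 4 to 6, and for the interaction 0 became 1, *Serpina3n*, without App HFD mouse 3.

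Over all clusters, the calls depended on the setting. With clusters above a signal of 100 alone, 12 were called for genotype, 8 in App HFD against WT RD, 3 for diet and 1 in App HFD against WT HFD. With an intensity trend and robust spread these were 3, 6, 0 and 2, and quantile normalization called 1 in App HFD against WT RD. Leaving out WT HFD mouse 2 gave 6 calls for genotype and 2 in App HFD against WT HFD. Leaving out App HFD mouse 1 gave 2 in App HFD against WT RD and 1 each in App HFD against WT HFD and App RD against WT RD, and leaving out App HFD mouse 2 gave 1 in App HFD against WT RD and 1 for diet.

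Same-numbered mice of different groups deviated together at r of -0.002 to 0.10 over 18 pairs (median 0.026). For differently numbered mice r was -0.08 to 0.06 over 36 pairs (median -0.022). Of the 12 mice, 6 had a same-numbered mouse as their closest mouse of another group. The labels state no pairing and the numbers were not taken as pairs, but whether they mark a shared step was not tested. With the replicate block, 0 members were called, and the 1 call for genotype over all clusters became 0. Signals of *Timp1* and *Steap4* were near the low end of the arrays, which limits them.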
